A study of Mus musculus with 22 samples.

Results

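The 10 genes described here are the core of the thermogenic programme of brown adipose tissue (BAT), namely the uncoupling proteins Ucp1, Ucp2 and Ucp3, the transcriptional coactivators Ppargc1a and Ppargc1b, the deiodinase Dio2, the lipid droplet gene Cidea, the elongase Elovl3, and the channel genes Kcnk3 and Otop1. They were chosen by name, as textbook genes of heat production in BAT, with earlier results of these data known. They make up 10 of the 55487 gene identifiers in each count table. The RNA came from BAT of 22 mice, 1 library per mouse. An untreated cohort held 5 wild-type (WT) and 5 CPEB2-knockout (KO) mice, which the labels give as males of 21 to 25 weeks on chow, and an adeno-associated virus (AAV) cohort held 3 mice in each of WT with AAV-GFP, WT with AAV-PRDM16, KO with AAV-GFP and KO with AAV-PRDM16. In the AAV cohort every mouse, controls included, received 20000000000 vector genomes in 30 µl into the interscapular BAT at 16 weeks and was sampled 9 weeks later, at 25 weeks. AAV-PRDM16 carried the coding region of mouse PRDM16 with a Flag tag, under a promoter not given in the sources used here, so it is not restricted by the labels to brown adipocytes. The KO was a whole-body deletion on the C57BL/6 strain, in which many pups die early, so the KO mice are survivors. The untreated mice went without food for a short time before their tissue was taken.

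Brown adipocytes turn chemical energy into heat. Cold or feeding raises noradrenaline at their β-adrenergic receptors, cyclic AMP then starts lipolysis and the transcription of thermogenic genes, and the freed fatty acids both fuel the mitochondria and open UCP1, which lets protons return to the matrix without making ATP. CPEB2 is an RNA-binding protein that controls the translation of its target mRNAs, and PRDM16 is a transcriptional co-regulator that sustains the brown fat identity. The comparisons ask whether the mRNAs of the thermogenic genes differ between KO and WT BAT, and whether extra PRDM16 changes them in either genotype.

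Upstream sequences are shown because the pathway above ends at gene promoters. From the RefSeq promoter table of GRCm38.p6, 6 of the 10 genes were matched. The genes without an entry were Cidea, Elovl3, Ppargc1b and Kcnk3. The sequences below run 5′ to 3′ on the strand of the gene and stop at the transcription start or, where the GENCODE gene begins earlier, at its first base. They are those of Ucp1 (chr8:83290098-83290347, plus strand), Ucp2 (chr7:100493108-100493336, plus strand), Ucp3 (chr7:100472741-100472989, plus strand) and Dio2 (chr12:90739039-90739288, minus strand). Capitals mark the letters TGACG or CGTCA, the short form of a cyclic AMP response element read on either strand, the full palindrome TGACGTCA, and AGGTCA or its reverse TGACCT, the single site of a nuclear receptor element.
Ucp1: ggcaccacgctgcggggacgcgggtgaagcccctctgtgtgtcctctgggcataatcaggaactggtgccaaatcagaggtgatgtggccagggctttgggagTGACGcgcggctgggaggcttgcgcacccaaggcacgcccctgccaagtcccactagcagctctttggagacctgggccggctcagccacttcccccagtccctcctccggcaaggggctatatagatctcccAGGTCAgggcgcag
Ucp2: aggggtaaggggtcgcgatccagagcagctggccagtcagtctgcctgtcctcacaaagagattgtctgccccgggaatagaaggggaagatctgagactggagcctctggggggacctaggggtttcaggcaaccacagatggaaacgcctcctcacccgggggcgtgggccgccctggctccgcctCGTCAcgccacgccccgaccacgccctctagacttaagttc
Ucp3: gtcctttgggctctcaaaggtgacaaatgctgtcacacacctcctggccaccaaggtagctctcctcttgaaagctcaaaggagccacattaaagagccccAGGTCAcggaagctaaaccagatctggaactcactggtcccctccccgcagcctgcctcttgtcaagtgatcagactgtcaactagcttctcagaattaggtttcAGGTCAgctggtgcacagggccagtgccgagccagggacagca
Dio2: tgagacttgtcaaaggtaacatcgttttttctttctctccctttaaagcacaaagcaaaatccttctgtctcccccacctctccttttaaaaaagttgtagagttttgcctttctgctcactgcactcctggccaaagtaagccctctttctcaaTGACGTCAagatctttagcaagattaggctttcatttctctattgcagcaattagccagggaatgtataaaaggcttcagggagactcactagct
Distances are counted from the RefSeq start, which lies 21 bases past the Ucp2 sequence shown and 1 base past that of Ucp3. The Ucp1 window held TGACG 147 bases and AGGTCA 14 bases before the start. The Ucp2 window held CGTCA 62 bases before it, and the Ucp3 window held AGGTCA at 149 and at 44 bases. The Dio2 window held the palindrome at 95 bases, which contains the shorter motif on both strands. Of the 32851 promoters in the table, 17.8% held TGACG or CGTCA, 14.0% held AGGTCA or TGACCT, and 1.55% held TGACGTCA, against 4, 2 and 1 of the 6 thermogenic genes matched. Those counts include Ppargc1a and Otop1, whose windows are not shown. The Ppargc1a window held CGTCA 49 bases before its start. The Otop1 window (chr5:38277154-38277403) held no match and lies within the GENCODE gene, which begins at base 38275972. These are matches of letters and nothing about binding was measured.

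The libraries held 55320927 to 162721202 counts in the untreated cohort and 61636889 to 143005309 in the AAV cohort, and the 10 genes together took 0.333% to 1.07% of them. All 10 passed the filter on low counts in both cohorts. The 8 brown adipocyte markers were detected in every library. In the AAV cohort Cpeb2 stood at 10.5 to 14.0 CPM (counts scaled to a common library size) in WT and 4.33 to 5.55 CPM in KO, with no overlap. In the untreated cohort KO replicate 1 had 11.7 CPM of Cpeb2, inside the WT range of 7.69 to 14.3 CPM, whereas the other KO libraries had 2.10 to 5.78 CPM. The untreated groups are therefore given as the libraries labelled WT and KO. Their labels also go against their sex-linked transcripts. Of these 10 libraries 6 (WT replicates 3 and 5, KO replicates 1, 3, 4 and 5) had at most 1.17 CPM of 4 Y-linked genes together and 104 to 305 CPM of Xist. All 12 AAV libraries had 153.8 to 193.8 CPM of the Y-linked genes and at most 0.268 CPM of Xist. Y-linked transcripts were present in WT replicates 1, 2 and 4 and KO replicate 2, so they are partly confounded with genotype in every untreated comparison. WT replicate 4 had both signals, 115.6 CPM of the Y-linked genes and 14.0 CPM of Xist, and KO replicate 2 had 77.0 and 1.65 CPM. Skeletal muscle markers, 12 genes summed, ran from 16.1 to 7208 CPM in the untreated libraries and from 0.833 to 95.2 CPM in the AAV libraries.

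Ucp1 and Cidea dominated the programme per length of transcript. In untreated WT BAT Ucp1 stood at 1906 ± 794 RPKM (CPM divided by the exon length in kilobases, mean ± SD, n = 5) and Cidea at 1542 ± 279.9 RPKM, which did not differ beyond their spread. Kcnk3, a background potassium channel, came next at 84.3 ± 35.9 RPKM and Otop1, a proton channel, at 53.5 ± 8.73 RPKM. Ucp3, Dio2 and Elovl3 followed at 45.8 ± 16.4, 37.6 ± 17.1 and 36.4 ± 33.0 RPKM. The coactivators came after them at 16.9 ± 6.94 RPKM for Ppargc1b and 8.41 ± 3.18 RPKM for Ppargc1a, and Ucp2 was lowest at 5.33 ± 3.68 RPKM. From Kcnk3 down to Ppargc1b, and again between Ppargc1a and Ucp2, no neighbours in this order differed by more than the larger of their SDs. The same leading genes, Ucp1 then Cidea then Kcnk3, held in the libraries labelled KO, at 2766 ± 1271, 1858 ± 799 and 102.7 ± 55.4 RPKM, where Ucp2 at 10.7 ± 2.74 RPKM stood above Ppargc1a at 5.37 ± 2.89 RPKM. In the AAV cohort Cidea led in WT with AAV-GFP, at 1282 ± 141 RPKM against 1051 ± 498 RPKM for Ucp1, and Ucp1 led in the other groups, by less than the spread. Ucp2 was the lowest of the 10 in all 4 AAV groups, at 1.84 to 4.86 RPKM. The merged exons of Ucp2 include retained introns, and on the length of its principal transcript its mean rose to 9.35 RPKM in untreated WT and 18.8 RPKM in KO, without leaving the lowest place in the AAV groups. Levels of the 2 cohorts were scaled separately and are not compared with each other.

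**Figure D1:**
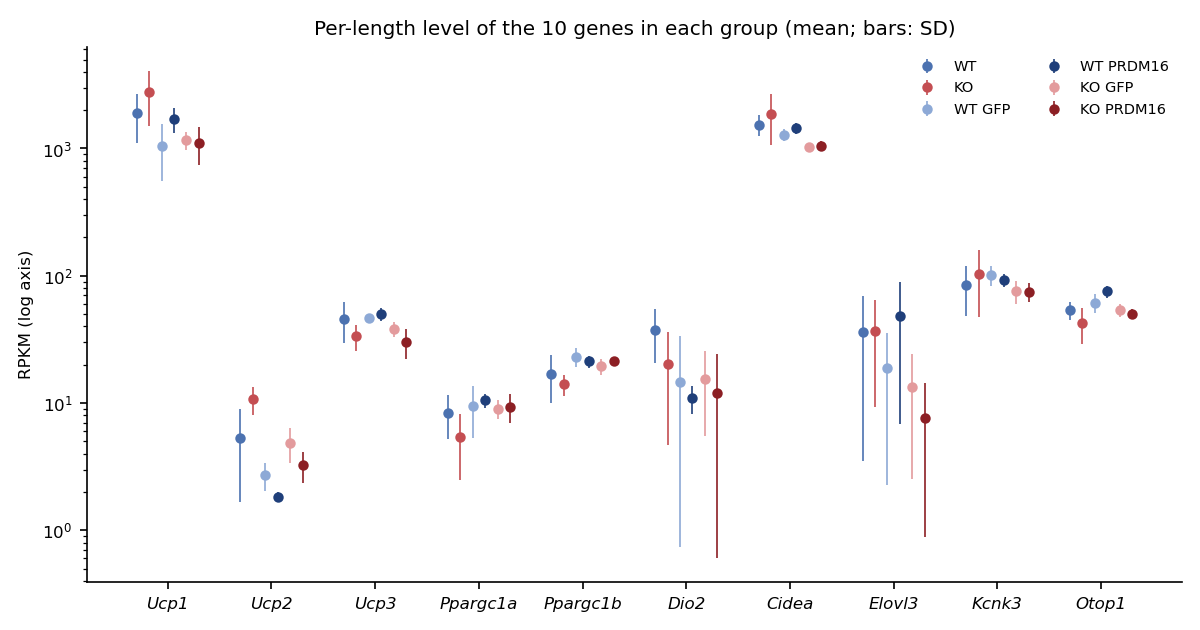
Mean level per length (RPKM, log axis) of the 10 thermogenic genes in the 6 groups, with bars of 1 SD over 5 or 3 libraries, lower bars shortened where the SD comes near or passes the mean. Ucp1 and Cidea lie above all other genes in every group, and Ucp2 is lowest in the 4 AAV groups.

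In untreated BAT none of the 10 genes differed between the libraries labelled KO and WT at a false discovery rate (FDR, Benjamini-Hochberg) of 0.05 by edgeR's quasi-likelihood test. Neither did any other gene, since 0% of the 17869 tested passed, and DESeq2 and limma-voom called none of the 10 either. At an unadjusted p under 0.05 only Ucp2 passed, in the higher direction, where 4.99% of all genes passed, and none passed in the lower direction, where 10.9% of all genes did. For no member did the 2 sides separate, against 1.4% of all genes. The median log2 fold change of the 10 was -0.13, beside 0.04 over all genes, with 5 higher and 5 lower. Differences moved with transcript length in this cohort, from a median of 0.50 over genes under 1 kb to -0.43 over genes of more than 6 kb, against -0.14 and 0.10 for KO against WT averaged over both viruses in the AAV cohort. The part of this trend in the member values was tested only by removing it, which turned Cidea, whose exons span 1115 bases, from 0.27 to -0.09. The spread in this cohort was wide, with a common dispersion of 0.312 against 0.0887 in the AAV cohort.

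Ucp1, the uncoupling protein of brown fat (chr8:83290352-83298452, plus strand), had 2087, 1443, 4285, 3475 and 4301 CPM in WT replicates 1 to 5. The libraries labelled KO had 2625, 2061, 5112, 6125 and 6697 CPM. The highest 3 values were all KO, yet KO replicates 1 and 2 lay below 3 of the WT libraries, so the groups overlapped. The log2 difference KO minus WT was 0.54 (standard error, SE, 0.41; adjusted p = 0.477). It was 0.11 with the Y-linked transcripts as a covariate, coded here and below only as present or absent in a library. Without WT replicates 1 and 2 it was 0.23. That pair stood apart from the rest of the cohort with 206 and 198 CPM of Ppara, where the other 8 libraries had 25.7 to 40.7 CPM.

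Ucp2, an uncoupling protein found in many tissues and abundant in macrophages, lies on chromosome 7 beside Ucp3, with 6904 bases between them (Ucp2, chr7:100493337-100502020; Ucp3, chr7:100472990-100486432; both plus strand). Its WT libraries had 14.9, 14.5, 47.9, 76 and 33.2 CPM. The libraries labelled KO had 75.2, 104, 56.7, 59.1 and 79.4 CPM. All 5 were above 4 of the WT libraries, and WT replicate 4 lay inside the KO range. The difference was 1.01 (SE 0.43, adjusted p = 0.306). Ucp2 was the one member to pass the study's own limits of 2-fold and an FDR of 0.5, which 10.8% of all genes passed. Both are results of the edgeR fit used here, and the study's own analysis called fewer genes at those limits. Without WT replicates 1 and 2 the difference was 0.57. Macrophage markers, 10 genes summed, had 55.0, 52.2, 121.8, 381.7 and 72.6 CPM in WT and 519.7, 338.5, 81.5, 88.2 and 138.4 CPM in KO. The WT library with the most Ucp2, replicate 4, was also the one with the most macrophage marker RNA. Fewer or more cells of a type and less or more RNA per cell cannot be told apart in bulk tissue. With the markers as a covariate the Ucp2 difference was 0.83 (adjusted p = 0.362), and their part in the result was not otherwise tested.

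Ucp3, the uncoupling protein of muscle and brown fat, had 134, 213, 139.5, 70.4 and 162 CPM in WT and 88.6, 80.9, 135, 127 and 93.3 CPM in KO. WT replicate 4 was the lowest of all 10, and the groups overlapped (-0.45, SE 0.29, adjusted p = 0.407). Ppargc1a, the coactivator that links cyclic AMP to mitochondrial biogenesis (chr5:51454250-51567726, minus strand), had 76.5, 35.7, 75.8, 32.9 and 56.4 CPM in WT. Its KO libraries had 59.9, 20.4, 29.0, 50.8 and 16.8 CPM, of which 3 lay below every WT library (-0.65, SE 0.39, adjusted p = 0.382). Without KO replicate 1, the library with a WT level of Cpeb2, the difference was -0.92 (SE 0.38, adjusted p = 0.198). With the length trend removed it was -0.445 for Ppargc1a, whose transcript has 6464 bases. Ppargc1b, its relative, had 42.0 to 97.5 CPM in WT and 42.7 to 68.6 CPM in KO (-0.27, SE 0.29, adjusted p = 0.601). Its highest 2 values were WT replicates 1 and 2, at 97.5 CPM each, and without that pair the difference was 0.30.

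Dio2 encodes the enzyme that turns thyroxine into its active form inside the brown adipocyte (chr12:90724552-90738438, minus strand). It had 95.5, 287, 215, 153 and 342 CPM in WT and 95.6, 113, 83.4, 273 and 28.9 CPM in KO. KO replicate 5 was lowest and KO replicate 4 lay among the higher WT libraries, so the groups overlapped (-0.88, SE 0.51, adjusted p = 0.370). Elovl3, which lengthens fatty acids and is induced by cold, varied most. It had 50.6, 70.4, 45.5, 11.3 and 182 CPM in WT and 50.3, 2.08, 85.0, 151 and 75.4 CPM in KO, with a difference of 0.02 (SE 0.81, adjusted p = 0.993). KO replicate 2 stood far below the others of its group. The difference was -1.39 with the Y-linked transcripts as a covariate and 0.77 with the macrophage markers, so its direction was not settled.

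Cidea, a protein of the lipid droplet surface, had 1486, 1818, 1967, 1303 and 2022 CPM in WT and 1251, 1009, 2598, 2454 and 3044 CPM in KO. The KO libraries fell on both sides of the WT range, KO replicates 1 and 2 below it and the other 3 above it (0.27, SE 0.33, adjusted p = 0.662). Kcnk3 fell on both sides too, with KO replicate 2 at 139 CPM and KO replicate 5 at 643 CPM around a WT range of 160.2 to 556 CPM (0.29, SE 0.44, adjusted p = 0.725). Otop1 had 194.4, 197, 157, 151 and 223 CPM in WT and 153, 66.1, 189, 164 and 158 CPM in KO (-0.34, SE 0.28, adjusted p = 0.507). KO replicate 2 was again the lowest, and the difference was -0.13 without it and -0.62 with the Y-linked transcripts as a covariate. That library also had 7208 CPM of skeletal muscle markers and 338.5 CPM of macrophage markers, and their part in its low values was not tested. Its scaling factor (TMM) of 1.473 was the largest of the cohort. Without the scaling factors KO replicate 2 had 1487 CPM of Cidea, inside a WT range of 1390 to 1842 CPM. Its Kcnk3 was then 204.4 CPM, inside a WT range of 171.5 to 550.8 CPM, and its Otop1 97.4 CPM. With the Y-linked transcripts as a covariate the differences of Cidea and Kcnk3 were -0.06 and -0.02, and without WT replicates 1 and 2 those of Kcnk3 and Ucp3 were 0.71 and -0.18.

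**Figure D2:**
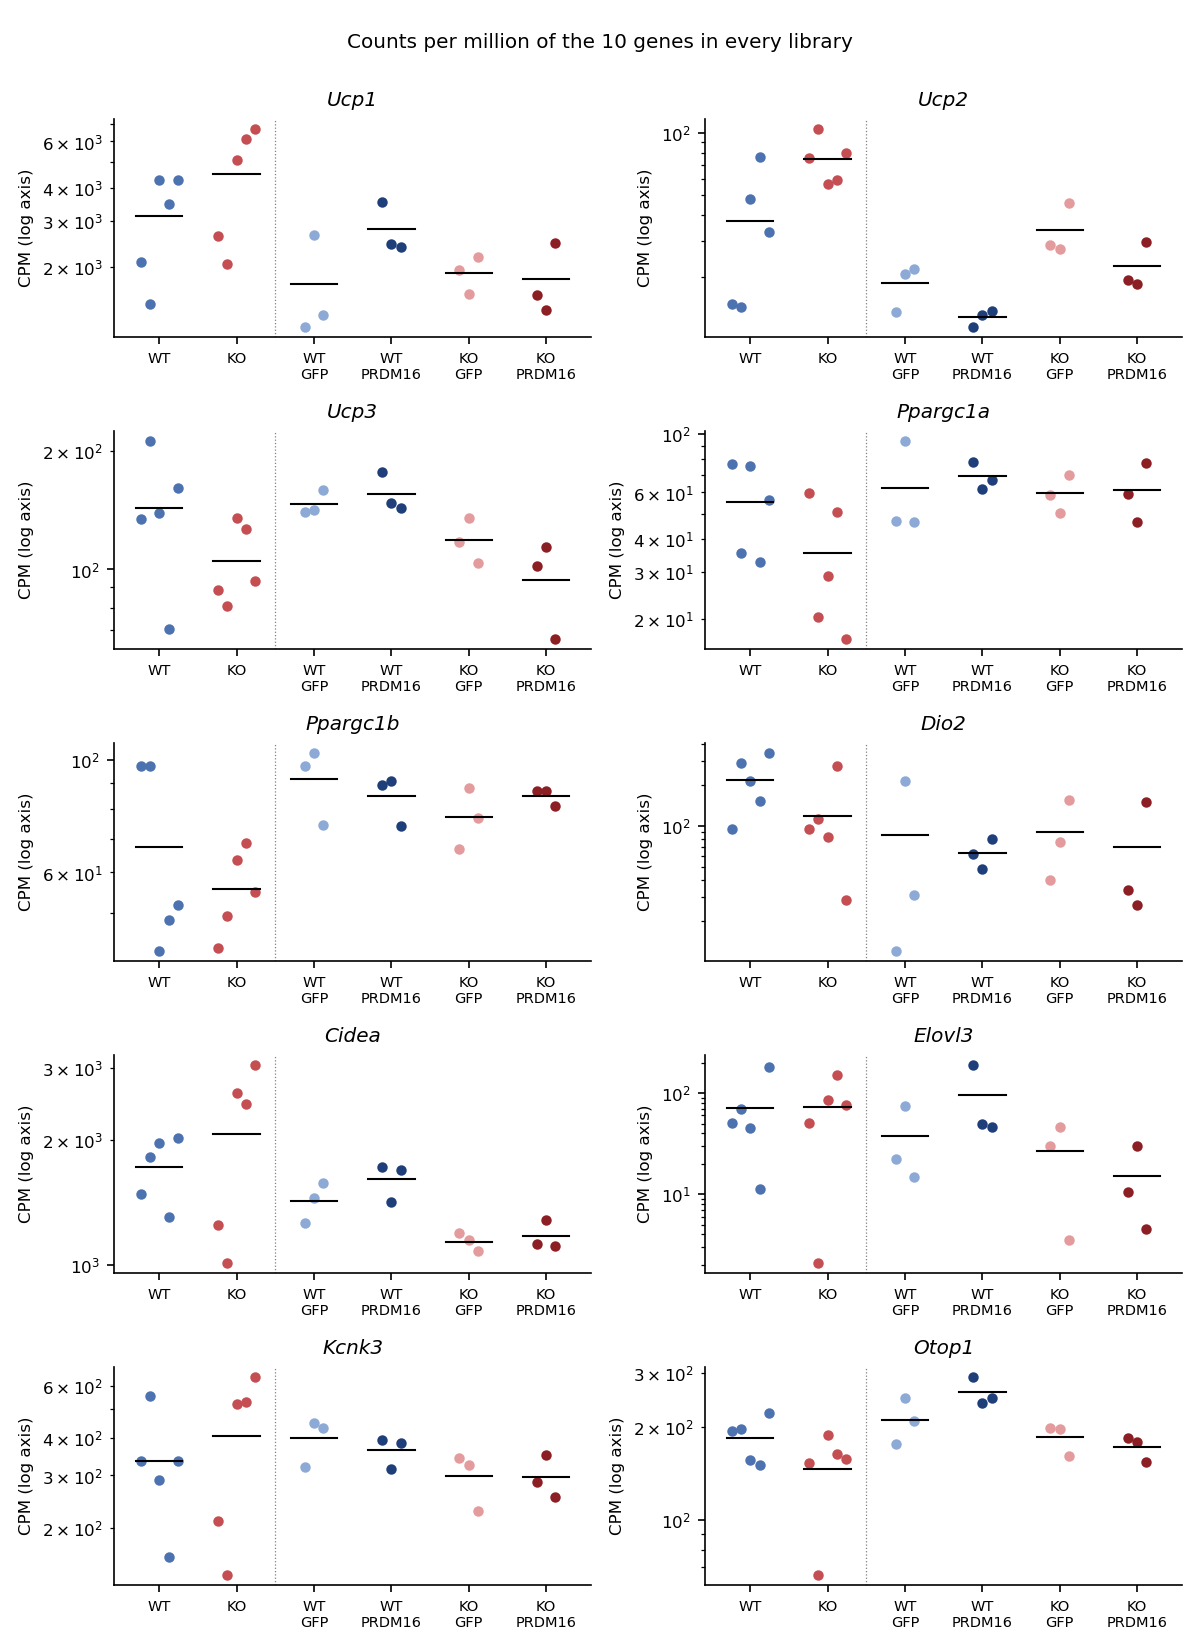
Level (CPM, log axis) of each of the 10 thermogenic genes in every library, 1 point per mouse, by group, with a line at the group mean. In the untreated cohort the WT and KO points overlap for every gene, and in the AAV cohort Ucp2 lies higher and Cidea lower in KO than in WT under the same virus.

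After AAV-GFP the KO and WT libraries separated for 3 of the 10 genes, Ucp2 higher and Ucp3 and Cidea lower in KO, where 13.4% of all 18899 genes tested separated. None passed an FDR of 0.05 by edgeR, which 0.0529% of all genes did. At an unadjusted p under 0.05, 1 was higher (Ucp2) and 2 were lower (Cidea and Kcnk3), where 4.98% of all genes were higher and 4.2% lower. DESeq2 called Ucp2, among 238 of all genes, and limma-voom called none of the 10. Ucp2 had 13.7, 20.9 and 22.01 CPM in WT and 28.6, 27.5 and 45.7 CPM in KO. The difference was 0.85 (SE 0.24, adjusted p = 0.311). Cidea had 1262, 1452 and 1575 CPM in WT and 1191, 1146 and 1078 CPM in KO (-0.33, SE 0.12, adjusted p = 0.441). Every KO library of Cidea lay below every WT library, by a small margin between 1262 and 1191 CPM. Without the scaling factors (TMM) the groups overlapped, with KO replicate 3 at 1299 CPM and WT replicate 1 at 1282 CPM. Ucp3 had 139.8, 142 and 159.5 CPM in WT and 118, 135 and 104 CPM in KO (-0.31, SE 0.18, adjusted p = 0.657). Kcnk3 overlapped, with 321, 449 and 435 CPM in WT and 344, 326 and 229 CPM in KO (-0.42, SE 0.18, adjusted p = 0.524). Ucp1 overlapped as well, at 1184, 2658 and 1320 CPM in WT and 1947, 1576 and 2192 CPM in KO (0.15, SE 0.31, adjusted p = 0.949).

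After AAV-PRDM16 the KO and WT libraries separated for 5 of the 10 genes, Ucp2 higher and Ucp3, Cidea, Elovl3 and Otop1 lower in KO, where 22.8% of all genes separated. None passed an FDR of 0.05 by edgeR, which 0.0476% of all genes did. At an unadjusted p under 0.05 those same 5 genes passed, 1 higher and 4 lower, where 6.92% of all genes were higher and 6.8% lower. DESeq2 called 4 of them among 626 of the 18899 genes, and limma-voom 3 among 545. The median over the 10 was -0.38, beside 0.01 over all genes. Ucp2 had 11.5, 13.2 and 13.8 CPM in WT and 19.4, 18.7 and 29.8 CPM in KO (0.82, SE 0.24, adjusted p = 0.181). Ucp3 had 177, 148 and 144 CPM in WT and 102, 114 and 66.5 CPM in KO (-0.73, SE 0.18, adjusted p = 0.130). The lowest Ucp3 library of the cohort was KO AAV-PRDM16 replicate 3. Otop1, at 292, 239.5 and 248 CPM in WT, had 184, 178 and 154 CPM in KO (-0.59, SE 0.14, adjusted p = 0.126). Cidea had 1719, 1416 and 1697 CPM in WT and 1123, 1282 and 1109 CPM in KO (-0.46, SE 0.12, adjusted p = 0.152). Both genes were thus lower in each KO library than in any WT library given the same virus. Elovl3 had 189.9, 49.98 and 46.4 CPM in WT and 10.6, 30.0 and 4.54 CPM in KO, a difference of -2.66 (SE 0.97, adjusted p = 0.257) that was -0.93 with the macrophage markers as a covariate. It ran from -3.65 without KO AAV-PRDM16 replicate 2 to -1.67 without WT AAV-PRDM16 replicate 1. Ucp1 had 3530, 2449 and 2388 CPM in WT and 1573, 1373 and 2477 CPM in KO (-0.63, SE 0.31, adjusted p = 0.402), with KO replicate 3 inside the WT range.

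Averaged over both viruses, with 6 KO against 6 WT libraries, Ucp2 rose and Cidea fell in KO at an FDR of 0.05. Such calls made up 2.18% of all genes, 1.12% in the lower direction. Ucp2 differed by 0.83 (SE 0.17, adjusted p = 0.0325) and Cidea by -0.39 (SE 0.085, adjusted p = 0.0378). Both overlapped across viruses, since Ucp2 in KO with AAV-PRDM16 began at 18.7 CPM, below the 22.01 CPM of the highest WT AAV-GFP library, and Cidea in KO with AAV-PRDM16 reached 1282 CPM, above the lowest WT AAV-GFP library. Ucp3 was the one member whose 6 KO libraries (66.5 to 135 CPM) all lay below the 6 WT libraries (139.8 to 177 CPM), as the 2 sides did for 2.71% of all genes, and it missed the threshold (-0.52, SE 0.12, adjusted p = 0.0538). Otop1 (-0.39, SE 0.0998, adjusted p = 0.0633), Kcnk3 (-0.36, SE 0.13, adjusted p = 0.158) and Elovl3 (-1.58, SE 0.66, adjusted p = 0.222) had unadjusted p under 0.05 as well. The Elovl3 difference was -0.20 (adjusted p = 0.964) with the macrophage markers as a covariate. In all 1 member was higher and 5 were lower at that level, where 9.54% of all genes were higher and 8.76% lower. Ucp1 (-0.24, SE 0.22, adjusted p = 0.613), Dio2 (0.11), Ppargc1a (-0.12) and Ppargc1b (-0.12) did not pass. DESeq2 and limma-voom each called Ucp2, Ucp3, Cidea and Otop1, among 1584 and 1269 of the 18899 genes.

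Both calls rested on small margins. Calls over all genes moved too, from 412 to between 89 and 590 as single libraries were left out. The Ucp2 call was lost, with differences of 0.71 to 0.90 and adjusted p of 0.0511 to 0.0873, when any 1 of 9 libraries was left out (each WT library, KO AAV-GFP replicate 2, KO AAV-PRDM16 replicates 1 and 3), and it held without each of the other 3. The Cidea call was lost, with differences of -0.40 to -0.36 and adjusted p of 0.0599 to 0.106, without any 1 of 8 libraries (WT AAV-GFP replicates 2 and 3, WT AAV-PRDM16 replicates 1 and 3, KO AAV-GFP replicates 2 and 3, KO AAV-PRDM16 replicates 1 and 3). Conversely, Ucp3 was called at -0.60 without KO AAV-PRDM16 replicate 2 (adjusted p = 0.0440), and Otop1 at -0.45 without WT AAV-GFP replicate 1 (adjusted p = 0.0461).

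In the AAV cohort macrophage marker RNA was highest where Ucp2 was highest. The sum of the 10 markers had 65.5, 137.8 and 140.9 CPM in WT with AAV-GFP, 47.9, 59.2 and 56.4 CPM in WT with AAV-PRDM16, 177.3, 164.8 and 414.2 CPM in KO with AAV-GFP and 110.7, 90.5 and 106.9 CPM in KO with AAV-PRDM16. All 10 markers were higher in KO on average over both viruses (median 1.004, 5 of them at an FDR of 0.05), and all 10 were lower with AAV-PRDM16 (median -0.99, none at an FDR of 0.05 by edgeR and 8 at an unadjusted p under 0.05). The library with the most macrophage RNA, KO AAV-GFP replicate 3, had the most Ucp2. With the markers as a covariate the averaged genotype difference of Ucp2 was 0.25 (SE 0.16, adjusted p = 0.595). The call of Cidea was also lost (adjusted p = 0.279) while its difference stayed between -0.44 and -0.36 under every alternative tried. With this covariate 0 of all 18899 genes were called, where 412 were without it. The markers differed by genotype themselves, so this fit cannot separate their part from that of genotype. With the 12 skeletal muscle markers as a covariate, which were at most 95.2 CPM in sum, both calls were lost as well. Ucp2 was then at 0.84 (adjusted p = 0.0525) and Cidea at -0.38 (adjusted p = 0.0653), and 220 of all genes were called. Of 5 endothelial markers 4 were higher in KO averaged over both viruses (median 0.41, 3 at an unadjusted p under 0.05), with sums of 320.3 to 523 CPM in KO and 334 to 438 CPM in WT, and their part in the member values was not tested.

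**Figure D3:**
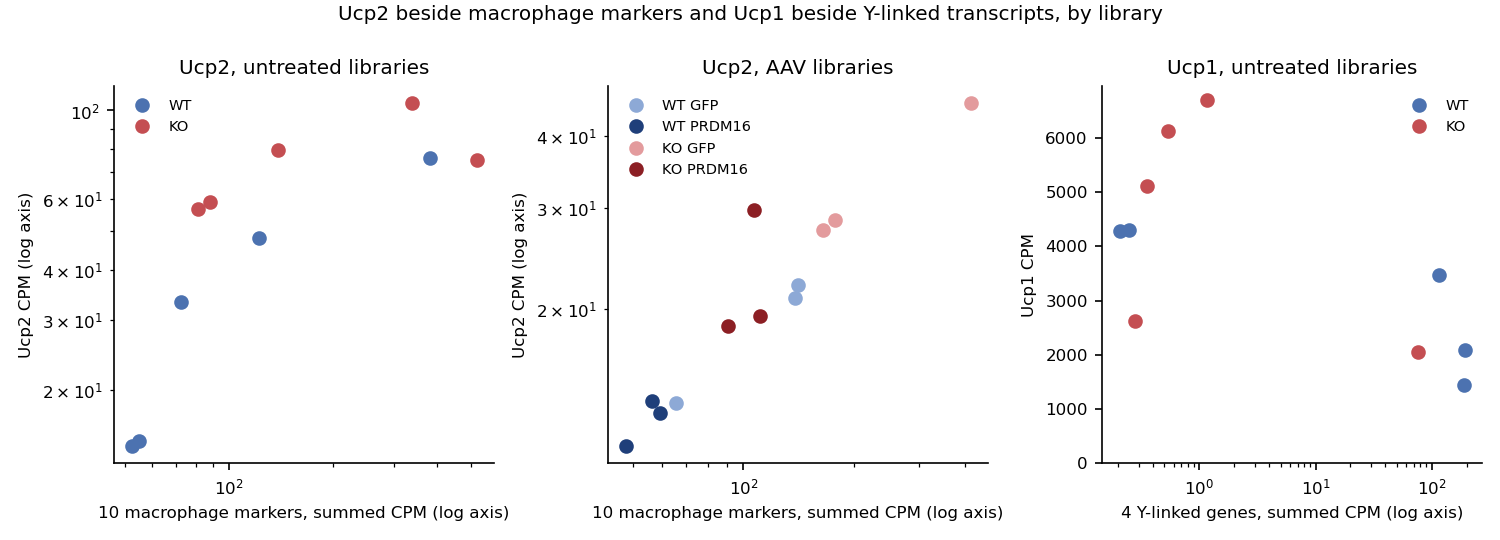
Left and middle, Ucp2 (CPM, log axis) against the summed CPM of 10 macrophage markers (log axis) in the untreated and the AAV libraries, and right, Ucp1 (CPM) against the summed CPM of 4 Y-linked genes (log axis) in the untreated libraries, 1 point per library, coloured by group. KO AAV-GFP replicate 3 lies at the upper right of the AAV libraries with 414.2 CPM of markers and 45.7 CPM of Ucp2, and the 2 untreated libraries with the least Ucp1, 1443 and 2061 CPM, are among the 4 with Y-linked transcripts.

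For AAV-PRDM16 against AAV-GFP no member passed an FDR of 0.05 by edgeR. Its transgene was seen in the counts of Prdm16, at 45.9 to 122 CPM in WT and 69.2 to 128 CPM in KO given AAV-PRDM16, against 23.9 to 40.2 CPM in the AAV-GFP libraries, and counts do not separate the viral from the endogenous transcript. In WT none of the 10 passed by edgeR, as 0% of all genes did, nor by DESeq2 or limma-voom, and no member separated, where 14.2% of all genes did. At an unadjusted p under 0.05 Ucp1 was higher with AAV-PRDM16 (0.70, SE 0.31, adjusted p = 0.666) and Ucp2 lower (-0.56, SE 0.24, adjusted p = 0.654), where 2.1% of all genes were higher and 5.19% lower. WT AAV-GFP replicate 2, at 2658 CPM, had more Ucp1 than 2 of the 3 AAV-PRDM16 libraries, and without it the Ucp1 difference was 1.16. In KO none passed by any of the 3 tools, as 0% of all genes did by edgeR, and none separated, where 9.43% of all genes did. Only Ucp2 had an unadjusted p under 0.05 there, again lower with AAV-PRDM16 (-0.59, SE 0.24, adjusted p = 0.666), as 5.1% of all genes were. Averaged over both genotypes Ucp2 was -0.57 (SE 0.17, adjusted p = 0.183) and Ucp1 0.31 (SE 0.22, adjusted p = 0.811). No member was called by edgeR, where 0.037% of all genes were, and limma-voom called no member. DESeq2 called Ucp2, among 602 of the 18899 genes. No member separated, where 0.561% of all genes did. With the macrophage markers as a covariate the averaged Ucp2 difference was 0.09 and that of Ucp1 0.75. Lymphocyte markers, 10 genes summed, were also lower with AAV-PRDM16, at 6.91 to 41.5 CPM in WT and 18.2 to 71.2 CPM in KO after AAV-GFP against 4.15 to 5.43 and 5.36 to 8.35 CPM after AAV-PRDM16. All 10 were lower on average over both genotypes (median -2.77, 7 at an unadjusted p under 0.05, none at an FDR of 0.05 by edgeR), and their part in the member values was not tested.

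KO with AAV-PRDM16 was also set against WT with AAV-GFP, the comparison that asks how far the treated KO lies from the control WT. Ucp3 alone separated, at 66.5 to 114 CPM in the treated KO below 139.8 to 159.5 CPM (-0.64, SE 0.18, adjusted p = 0.424), where 13.2% of all genes did. Along with Ucp3, Cidea (-0.29, SE 0.12, adjusted p = 0.589) and Kcnk3 (-0.44, SE 0.18, adjusted p = 0.591) were lower at an unadjusted p under 0.05, as 4.42% of all genes were, and Ucp2 differed by 0.26 (SE 0.24, adjusted p = 0.879). No member passed an FDR of 0.05 with any of the 3 tools, and 0.00529% of all genes did by edgeR. This comparison shares its WT libraries with that under AAV-GFP, and its KO libraries with that under AAV-PRDM16.

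Whether the genotype difference itself changed with the virus was tested by the interaction term. No member passed by any of the 3 tools, as 0% of all genes did by edgeR, and none had an unadjusted p under 0.05. The largest terms were those of Elovl3 (-2.16, SE 1.30), Ucp1 (-0.77, SE 0.43), Ucp3 (-0.42) and Otop1 (-0.41), all with an adjusted p of 0.9998. The effects under the 2 viruses were therefore not shown to differ.

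**Figure D4:**
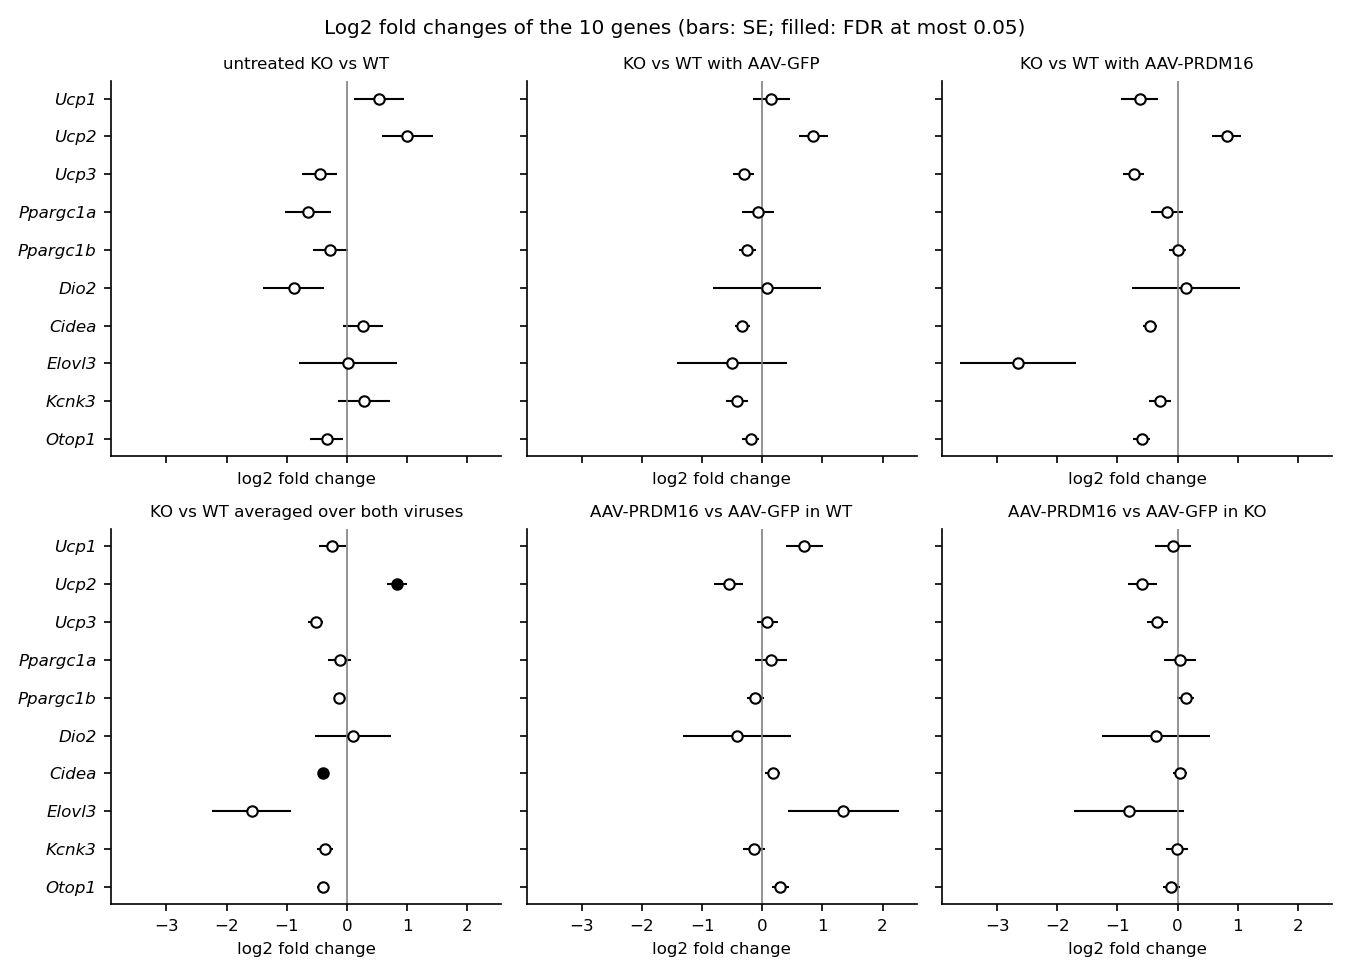
Log2 fold change of the 10 thermogenic genes in 6 comparisons, from edgeR's fit, with bars of 1 SE and filled points for calls at an FDR of at most 0.05. The difference of Elovl3 after AAV-PRDM16, -2.66, lies farthest from 0 of those drawn, and the 2 calls are Ucp2 and Cidea for KO against WT averaged over both viruses.

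No genotype difference of the coactivators or Dio2 was detected in the AAV cohort. Ppargc1a ran from 46.5 to 93.8 CPM over all 12 libraries and Ppargc1b from 66.8 to 103.3 CPM. Dio2 ran from 12.1 to 213 CPM in WT with AAV-GFP, from 40.5 to 153.8 CPM in KO with AAV-GFP and from 26.4 to 150.4 CPM in KO with AAV-PRDM16, and over a narrower range of 48.4 to 80.1 CPM in WT with AAV-PRDM16. Its averaged genotype difference of 0.11 moved between -0.50 and 1.10 as single libraries were left out. Kcnk3 ran from 229 to 449 CPM.

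Some members kept company across libraries of both cohorts. Elovl3 and Otop1 correlated at Pearson r = 0.88 over the 10 untreated and 0.88 over the 12 AAV libraries, and Cidea and Kcnk3 at 0.90 and 0.80. Ucp2 and Ucp3, neighbours on the chromosome, ran opposite, at -0.80 and -0.61. Ucp1 and Ppargc1a correlated at 0.89 in the AAV libraries and at -0.14 in the untreated ones. Among 13625 other genes, those most like Ucp2 were Tmem176b (0.96 and 0.98), Tmem176a (0.96 and 0.92) and the macrophage marker C1qc (0.95 and 0.93). Those most like Cidea were Cbr1, Eci1 and Uck1, of which Eci1, an enzyme of fatty acid oxidation, reached 0.95 and 0.96. For Ucp3 they were Acot3, Ehhadh and Cdc25a, and for Otop1 Dnaja3, Decr1 and Pctp. Ucp1 was most like Mpdu1, H13 and Otulin, with Otulin at 0.88 and 0.91, and Elovl3 most like Lyplal1 (0.97 and 0.92), Letm1 and Acot12. The Ppargc1a list held Gk, the glycerol kinase (0.90 and 0.94), Srfbp1 and Ftsj3, the Dio2 list Tmem161b, Atl2 and Dpy19l1, and the Kcnk3 list Aldh4a1, Slc25a22 and Stxbp2. Ppargc1b had the weakest neighbours, Dot1l, Zzef1 and Inpp5e, with Dot1l at 0.79 and 0.80. The libraries share depth, group and cell makeup, and these values describe them without a test.

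Another 39 genes of the pathway, from adrenergic receptors to the mitochondrion, were listed with earlier results of these data known, so their counts are a description. None of the 39 passed an FDR of 0.05 in untreated BAT by edgeR or by DESeq2 or limma-voom. At an unadjusted p under 0.05, 1 was higher and 7 lower (median -0.02, beside 0.04 over all genes). The higher one was Adrb3, the β3-adrenergic receptor through which noradrenaline acts on brown fat (0.97, SE 0.31, adjusted p = 0.305). It had 84.0 to 239 CPM in WT and 250.4 to 521 CPM in KO, with no overlap. Over all genes 4.99% were higher at an unadjusted p under 0.05 and 0.492% separated in that direction. The lower genes with the largest changes were the nuclear receptors Ppara (-1.72) and Esrrg (-1.39) and the brown fat transcription factor Ebf2 (-1.26), each with its high values in WT replicates 1 and 2, and 10.9% of all genes were lower at that level. In the AAV cohort, averaged over both viruses, 28 of the 37 tested were lower in KO, where 51.6% of all genes had differences above 0. Of the 37, 17 were lower at an unadjusted p under 0.05, where 8.76% of all genes were (median -0.18, beside 0.01). At an FDR of 0.05, 3 were lower, where 1.12% of all genes were. These were Cox7a1 (-0.64, adjusted p = 0.0145) and Cox8b (-0.67, adjusted p = 0.0189), both cytochrome c oxidase subunits, and Slc25a20 (-0.43, adjusted p = 0.0253), the mitochondrial carnitine carrier. No pathway gene was called with the macrophage markers as a covariate, where 0 of all 18899 genes were called. The count of pathway genes was 2 without WT AAV-GFP replicate 2 or 3 or WT AAV-PRDM16 replicate 1, 1 without WT AAV-PRDM16 replicate 3, KO AAV-GFP replicate 2 or KO AAV-PRDM16 replicate 1, and 5 without KO AAV-GFP replicate 1. By role, all 6 tested genes of adrenergic input and all 10 of lipolysis and fuel had negative differences, 6 of each at an unadjusted p under 0.05, as did 4 of 5 mitochondrial genes, against 7 of 11 transcription factors. The other genes named here by the size of their change were Slc27a2, a fatty acid transporter (-0.79, adjusted p = 0.0532), and Bmp8b, a secreted factor at 0.0936 to 2.32 CPM (1.77, adjusted p = 0.173).

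In the separate comparisons no pathway gene passed an FDR of 0.05 by edgeR. DESeq2 called 3 after AAV-GFP, among 238 of all genes, and 7 after AAV-PRDM16, among 626. After AAV-GFP 6 of 37 genes were lower in KO at an unadjusted p under 0.05, beside the 4.2% of all genes given above, led by Slc27a2 (-0.90), Cox8b (-0.75) and Cox7a1 (-0.71). After AAV-PRDM16 13 were lower, beside 6.8% of all genes, led by Slc27a2 (-0.68), Adrb3 (-0.62) and Cox8b (-0.58), so that Adrb3 stood lower in KO there and higher in the untreated libraries labelled KO. AAV-PRDM16 against AAV-GFP was led by Prdm16 itself in WT (1.52) and in KO (1.47), followed by Cpt2 (0.32) and Ebf2 (-0.28) in WT and by Adrb1 (-0.45) and Cox8b (0.39) in KO. In KO with AAV-PRDM16 against WT with AAV-GFP, Prdm16 (1.44), Slc27a2 (-0.71) and Adrb1 (-0.56) led.

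**Figure D5:**
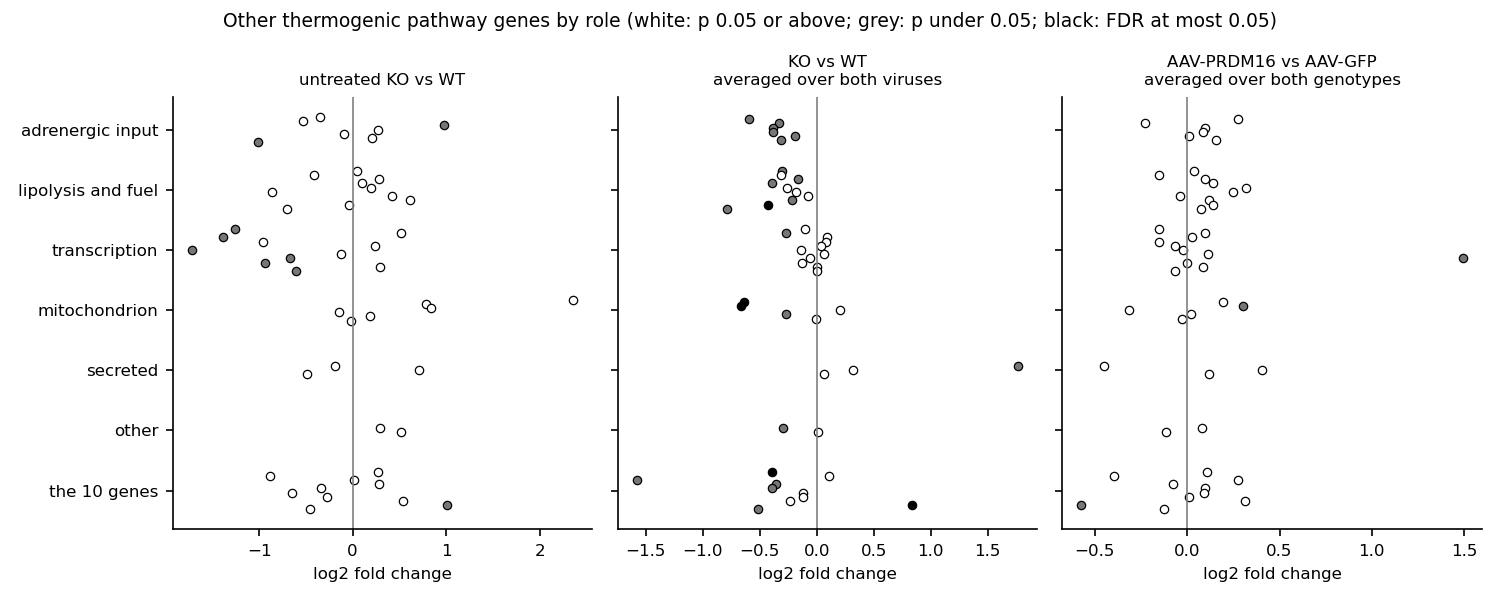
Log2 fold change of the other pathway genes by role and, in the bottom row, of the 10 thermogenic genes, 1 point per gene, for KO against WT in the untreated cohort (left), KO against WT averaged over both viruses (middle) and AAV-PRDM16 against AAV-GFP averaged over both genotypes (right), with grey points at an unadjusted p under 0.05 and black points at an FDR of at most 0.05. In the middle panel all 6 adrenergic and all 10 lipolysis and fuel genes lie below 0, whereas in the left panel the points of these roles lie on both sides.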

How the data were processed

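BAT RNA of 22 mice was sequenced from mRNA libraries made with a SureSelect XT HS2 kit. The authors deposited 1 table of raw read counts per gene for each cohort, with no normalization. The submitters' processing notes name bcl2fastq 2.20, Trimmomatic 0.36, HISAT2 and GRCm38.p6. The counter, strand and handling of duplicates are not given in the sources used here, so reads shared with paralogs or antisense genes could be split. GENCODE M21 matched 55227 of 55487 identifiers. Groups were taken from the labels, which give 1 mouse per sample.

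Genes passing edgeR's filterByExpr (17869 untreated, 18899 AAV) were compared by the quasi-likelihood test of edgeR 4.0.16 in R 4.3.3 on TMM-scaled counts. P-values are two-sided and adjusted over all genes tested by Benjamini and Hochberg's method, with calls at an FDR of 0.05. The study's own rule of 2-fold and an FDR of 0.5 was a second rule in the untreated cohort. The untreated fit used 10 libraries and the AAV fit all 12. Levels are CPM after TMM scaling, and RPKM divides them by the merged exon length. Correlations used log2 CPM with a prior count of 2. DESeq2 1.42.0, limma-voom (limma 3.58.1), other filters and scalings, left-out libraries and covariates were tried as alternatives. The covariate of macrophage markers, the removal of a length trend and the principal transcript length were added after the data were seen. The scripts were tested on simulated counts with known changes.

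The 10 genes and all lists were chosen with earlier results of these data known. All 10 are named. Of the pathway list, the 3 with the largest change at an unadjusted p under 0.05 are named per comparison, and the FDR calls besides. For each member the 3 genes are named whose smaller correlation over the 2 cohorts was largest. Precision at this depth is set by the spread between mice, not by counting.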

Additional observations from a re-analysis of the deposited data

Results flagged for a closer look

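In a group of 5 untreated libraries, 1 library stood apart from the other 4 for 2 of the 20 gene and group pairs examined, by the ratio of its gap to the whole range (Dixon's critical value 0.71). Chance flags about 1 in 20 such groups. Elovl3 in KO replicate 2 had 2.08 CPM, where the other 4 libraries had 50.3 to 151 CPM (gap over range 0.743). Otop1 in the same library had 66.1 CPM, where the other 4 had 153 to 189 CPM (gap over range 0.799). This library had 7208 CPM of skeletal muscle markers, the most of the cohort, and 338.5 CPM of macrophage markers. The part of these markers in the low values was not tested. The library also had the largest TMM scaling factor of the cohort, 1.473, and the flags were computed on scaled levels only. Without the factors its Otop1 was 97.4 CPM, where the rest of the group had 149.3 to 180.2 CPM. Its Elovl3 was then 3.06 CPM, where the rest had 51.7 to 137.5 CPM.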

How the results depend on the processing

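Counts of genes called at an FDR of 0.05 depended on the tool and, in the AAV cohort, on single libraries. DESeq2 called 238 genes after AAV-GFP (1 member, 3 pathway genes), 626 after AAV-PRDM16 (4 and 7), 147 for AAV-PRDM16 against AAV-GFP in WT (0 and 1), 262 for it in KO (0 and 1), 157 for KO with AAV-PRDM16 against WT with AAV-GFP (0 and 1), 1 for the interaction, 1584 for KO against WT averaged over viruses (4 and 10) and 602 for virus averaged over genotypes (1 and 1). The edgeR counts were 10, 9, 0, 0, 1, 0, 412 and 7 in that order. Limma-voom with quality weights called 1 pathway gene after AAV-GFP, 545 genes after AAV-PRDM16 (3 and 9), 1 for virus in WT and 1269 for the averaged genotype (4 and 9). RLE scaling gave 76 genes and 1 pathway gene for the averaged virus. Without a filter the averaged genotype gave 250 genes with 1 member, and the averaged virus 144 with 1 pathway gene. A filter of 0.5 CPM in 1 library gave 0 for the averaged virus. Skeletal muscle markers as a covariate gave 1 after AAV-GFP, 1 after AAV-PRDM16, 220.0 for the averaged genotype with 0 members and 0 for the averaged virus. Macrophage markers as a covariate gave 0 after AAV-GFP, 0 after AAV-PRDM16, 0 for the averaged genotype with 0 members and 0 pathway genes, and 0 for the averaged virus. Removal of the length trend gave 5 after AAV-GFP, 2 after AAV-PRDM16, and 132 with 2 pathway genes for the averaged virus. Fitting only the 2 groups compared gave 0 after AAV-GFP, 2 after AAV-PRDM16 and 0 for KO with AAV-PRDM16 against WT with AAV-GFP. Leaving out genes of the mitochondrial genome raised the median level of the members over all libraries from 122.9 to 181.5 CPM. The untreated comparison called 0 genes under every alternative. The causes were not tested beyond what each alternative changes.

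Leaving out 1 library at a time gave 0 to 8 genes after AAV-GFP (0 to 1 pathway gene), 0 to 15 after AAV-PRDM16 (0 to 1), 0 to 2 for virus in WT and 0 to 2 in KO, 0 to 3 for KO with AAV-PRDM16 against WT with AAV-GFP, 0 to 1 for the interaction, 89 to 590 for the averaged genotype (0 to 3 members, 1 to 5 pathway genes) and 0 to 352 for the averaged virus (0 to 1 pathway gene).

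Groups share replicate numbers, but same-numbered libraries did not deviate together. Their correlations were over 0.1 in 1 of 5 untreated pairs (-0.292 to 0.111) and in 2 of 18 AAV pairs (-0.0912 to 0.154). The numbers were therefore used only as names, and other groupings of the mice were not tested. With the replicate block, 1 gene was called after AAV-GFP, 5 after AAV-PRDM16, 2 for the averaged virus and 344 for the averaged genotype, with 1 member, Ucp2 (0.81, adjusted p = 0.0156), while Cidea was at -0.39 (adjusted p = 0.0609).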
